A study of Mus musculus with 36 samples.

Results

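The sterol and fatty acid synthesis genes described here are 28 genes chosen by name, out of 53274 genes counted at every age of the study. They hold 3 regulators (Srebf1, Srebf2 and Insig1), 18 enzymes of the route from acetyl-CoA to cholesterol, the sterol carrier Stard4, 5 enzymes of fatty acid synthesis (Acly, Fasn, Elovl6, Scd1 and Scd2) and the phosphatidate phosphatase Lpin1. They were listed by name and not by a threshold on these data, although earlier results of these data were known when the list was made. All 28 had enough reads to be tested at each age. Tested genes numbered 17916 at 1 month, 17229 at 2 months and 17224 at 3 months.

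Cells set the rate of sterol and fatty acid synthesis through the sterol regulatory element binding proteins (SREBPs), which Srebf1 and Srebf2 encode. When sterol in the endoplasmic reticulum is low, the SREBPs travel to the Golgi, are cut there and enter the nucleus, where they bind promoters of the genes of synthesis and uptake, whereas INSIG1 holds them back when sterol is plentiful. The brain makes nearly all of its own cholesterol, since lipoproteins do not cross the blood-brain barrier, and oligodendrocytes, which build myelin, and astrocytes, which supply neurons with lipid, carry much of this synthesis.

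The study measured RNA in a mouse model of late infantile neuronal ceroid lipofuscinosis, a lysosomal storage disease of children caused by loss of the lysosomal protease TPP1. Forebrain with midbrain (F/M) and cerebellum (Cb) were taken at 1, 2 and 3 months from control and Tpp1-/- mice, with 3 libraries in each of 12 groups and 36 libraries in all. The line carries a Tpp1 allele disrupted by gene targeting and was kept by crossing heterozygotes, so that affected and control mice were siblings. The controls were wild type, except that control replicate 3 of 1 month was heterozygous in both regions. Replicate 1 of each 1-month group was female and the others male, all mice of 2 months were male, and replicate 3 of each 3-month group was female. RNA was extracted with TRIzol and cleaned on columns, and poly(A) RNA was made into strand-specific libraries read for 50 bases from a single end. In such tissue RNA, fewer cells of a type and less RNA per cell cannot be told apart. The labels do not say that libraries of a group came from separate litters, so the p-values measure the spread between these libraries.

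The libraries held between 10609896 and 29942380 reads counted in genes, with a median of 21049839, and the shallowest was Tpp1-/- replicate 3 of F/M at 2 months. Tpp1 itself, on mouse chromosome 7 (chr7:105744811-105752235 in GRCm38), was lower in each Tpp1-/- group, with log2 differences of -1.91, -2.12 and -1.34 in F/M at 1, 2 and 3 months and -2.04, -2.06 and -1.31 in Cb. At 1 month it read 74.39 and 69.72 CPM (TMM-scaled counts relative to library size) in the wild-type F/M controls, 46.6 in the heterozygous control and 16.21 to 18.04 in the Tpp1-/- libraries. The summed level of 10 forebrain markers lay at 603 to 693 CPM over the F/M libraries but at 18 to 35 CPM over those of Cb, while 10 cerebellar markers summed to 316 to 395 CPM over the former and to 6611 to 8749 CPM over the latter, so every library matched its labelled region.

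The promoters are shown because the members share a route of control that their sequence can be searched for. Of the 28 members, 22 had a promoter in the RefSeq table (GRCm38.p6), and Fdps, Fdft1, Sqle, Stard4, Scd1 and Scd2 did not. The 250 bases before each start were searched on both strands for the sterol regulatory element type TCACNCCAC, for the NF-Y type box CCAAT and for the E-box CACGTG. Hmgcs1 was the member that held the sterol element. Fasn held 3 CCAAT copies, 2 of which overlap on opposite strands, and Hmgcs1, Msmo1 and Hsd17b7 also held 3. Insig1, Sc5d and Lpin1 were members that passed the test in F/M at 2 months. The 5 windows printed are those of Hmgcs1, Fasn, Insig1, Sc5d and Lpin1. They lie at chr13:119690101-119690350 (plus strand), chr11:120824548-120824797 (minus), chr5:28071162-28071362 (plus, shortened where the annotated first exon begins), chr9:42264301-42264550 (minus) and chr12:16610967-16611216 (minus), and capitals mark the 3 motifs on either strand, so that CCAAT read from the other strand appears as ATTGG.
Hmgcs1: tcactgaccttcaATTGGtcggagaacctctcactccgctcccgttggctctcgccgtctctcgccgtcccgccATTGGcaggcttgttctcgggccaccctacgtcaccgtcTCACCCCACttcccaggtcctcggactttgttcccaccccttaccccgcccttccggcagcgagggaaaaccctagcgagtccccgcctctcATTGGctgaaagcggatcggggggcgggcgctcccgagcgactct
Fasn: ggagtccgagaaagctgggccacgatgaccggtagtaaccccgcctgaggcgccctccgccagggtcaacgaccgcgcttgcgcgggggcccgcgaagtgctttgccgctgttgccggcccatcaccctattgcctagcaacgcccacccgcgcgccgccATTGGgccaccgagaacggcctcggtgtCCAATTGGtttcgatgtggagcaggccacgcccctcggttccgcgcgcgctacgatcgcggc
Insig1: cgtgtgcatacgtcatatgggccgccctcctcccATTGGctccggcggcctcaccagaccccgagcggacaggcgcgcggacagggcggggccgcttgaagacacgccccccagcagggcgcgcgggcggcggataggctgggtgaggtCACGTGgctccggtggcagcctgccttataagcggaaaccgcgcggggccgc
Sc5d: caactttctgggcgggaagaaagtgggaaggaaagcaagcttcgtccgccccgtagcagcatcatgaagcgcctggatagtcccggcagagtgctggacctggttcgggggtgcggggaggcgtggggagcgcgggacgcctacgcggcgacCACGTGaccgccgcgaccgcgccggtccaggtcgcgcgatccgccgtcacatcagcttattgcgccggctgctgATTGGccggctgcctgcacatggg
Lpin1: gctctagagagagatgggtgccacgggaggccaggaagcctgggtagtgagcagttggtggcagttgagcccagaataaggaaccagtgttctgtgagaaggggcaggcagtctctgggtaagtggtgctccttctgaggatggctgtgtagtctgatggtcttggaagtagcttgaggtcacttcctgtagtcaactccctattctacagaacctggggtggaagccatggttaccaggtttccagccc

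CCAAT was the motif most of these promoters shared: 18 of the 22 members (81.8%) held it, beside 37.5% of the 27025 genes in the table. At least 2 copies stood in 10 members (45.5%) and in 11.5% of all genes, and Mvk held 5. The members without it were Acat2, Acly, Elovl6 and Lpin1, and none of these 4 held any of the 3 motifs. CACGTG stood in 4 members (18.2%; Insig1, Hsd17b7, Sc5d and Dhcr7) and in 6.86% of all genes. The full sterol element stood in Hmgcs1 only, 137 bases before the start, which is 4.55% of the members and 1.22% of all genes. Without its first base (CACNCCAC, which also lies within the full element) it stood in 3 members (13.6%; Insig1, Acat2 and Hmgcs1) and in 6.05% of all genes. The copy of Insig1 lies in the annotated first exon, past the end of the window printed. These are matches of letters in a short window and were not read as binding.

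Levels of different genes were compared per length, as FPKM, which divides TMM-scaled counts by exon length. In the 2-month controls Scd2, the stearoyl-CoA desaturase that introduces a double bond into saturated fatty acids in brain, stood far above the rest, at 298.7 ± 5.49 FPKM in F/M and 335.3 ± 3.57 in Cb (mean ± SD, n = 3), and it ranked 1 in all 12 groups. Hmgcs1, which makes HMG-CoA, followed in F/M at 64.27 ± 2.46 FPKM but stood at 38.21 ± 2.498 in Cb. Scd1, the desaturase isoform better known from liver and skin, stood at 43.22 ± 2.76 and 47.94 ± 2.42 FPKM, and Acly, which makes cytosolic acetyl-CoA from citrate, at 38.56 ± 0.952 and 39.97 ± 1.70. Scd1, Acly and, in Cb, Hmgcs1 lay close together, whereas Srebf2 (36.71 ± 1.46 FPKM in F/M, 21.18 ± 0.471 in Cb) was far above Srebf1 (7.76 ± 1.18 and 6.738 ± 0.182).

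The middle of the order was crowded. In F/M Sc5d stood at 17.26 ± 0.966 FPKM, Cyp51 (15.61 ± 0.454) and Msmo1 (15.06 ± 1.83) lay within an SD of Msmo1 of each other, and Fdft1 (12.80 ± 1.42), Sqle (12.76 ± 0.948) and Insig1 (12.71 ± 0.768) could not be ordered. Lpin1 was among the lowest, at 3.539 ± 0.193 FPKM in F/M and 5.135 ± 0.149 in Cb. Fdps and Idi1, enzymes of the mevalonate route, were last in every group, at 0.7662 ± 0.144 and 0.2881 ± 0.0862 FPKM in F/M, and their counts fell as low as 28 and 7 reads in a library. Both genes have related copies or pseudogenes in the genome, and Fdps shares 26.71% of its exon length with a gene on the same strand, so their levels are uncertain.

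**Figure D1:**
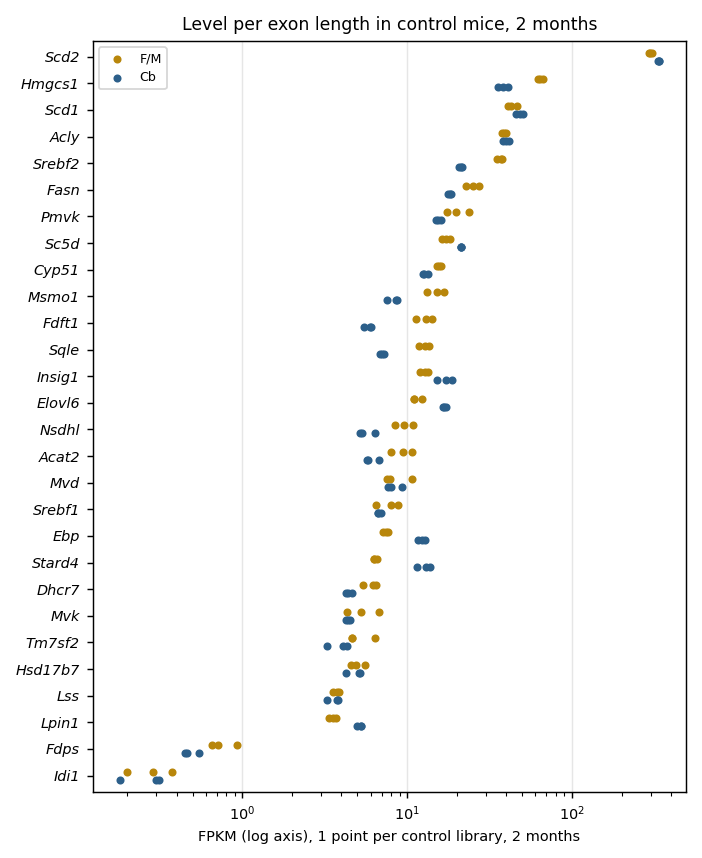
TMM-scaled FPKM of the 28 members in the 2-month control libraries on a log axis, with 1 point per library, for F/M and Cb. Scd2 lies near 300 FPKM in both regions and Idi1 and Fdps lie below 1, while Srebf2, Hmgcs1, Fdft1 and Sqle lie lower in Cb than in F/M.

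The main question of the design was which genes differ between Tpp1-/- and control mice in each region and at each age. At 2 months in F/M, before the motor signs of the disease, 5 of the 28 members rose and none fell: Scd1, Lpin1, Scd2, Sc5d and Insig1, with log2 differences (Tpp1-/- minus control) between 0.21 and 0.41. A gene passed the test where its adjusted p by edgeR was under 0.1, which 3.17% of all tested genes did in this comparison and 2.26% did as higher. None of the 5 reached the fold change of 1.5 that the study asked of a differentially expressed gene. DESeq2 and limma-voom passed the same 5 members, but without control replicate 3, Tpp1-/- replicate 1 or Tpp1-/- replicate 3, or in the fit of all 36 libraries, Scd1 alone passed, beside 0.439%, 0.224%, 0.342% and 0.267% of all genes. Without control replicate 1 Insig1 did not pass, whereas Fasn did as higher and Pmvk as lower (-0.26, adjusted p = 0.079), and 12.6% of all genes passed then. In the other genotype comparisons within an age and region no member passed by edgeR, DESeq2 or limma-voom.

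Scd1 showed the largest difference of the 28 members. It read 223.4, 197.0 and 206.7 CPM in the controls and 294.6, 265.6 and 273.4 CPM in the Tpp1-/- libraries. Its log2 difference was 0.41 ± 0.07 (± SE throughout for log2 differences; 95% interval 0.27 to 0.55; adjusted p = 0.00785), a 1.33-fold level, and every Tpp1-/- library lay above every control. Scd2 read 1662, 1604 and 1621 CPM in the controls and 2143, 1805 and 1922 CPM in the Tpp1-/- libraries, a log2 difference of 0.26 ± 0.07 (adjusted p = 0.064). The genotypes did not overlap for Scd2 either, and the Tpp1-/- libraries were spread more widely than the controls. Scd2 (chr19:44293674-44306864) and Scd1 (chr19:44394455-44407879; GRCm38, also for the genes below) are neighbours of similar sequence, so reads could be split between them.

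The other enzymes of fatty acid synthesis did not pass. Fasn, the fatty acid synthase, read 299.0, 250.8 and 275.2 CPM in the controls and 296.0, 313.6 and 318.0 in the Tpp1-/- libraries, so the groups overlapped (0.17 ± 0.07, adjusted p = 0.206). Acly stood at 0.06 ± 0.06 (adjusted p = 0.621) and Elovl6, which lengthens the product of Fasn, at 0.08 ± 0.07 (adjusted p = 0.612). Lpin1 (chr12:16535669-16610966), which turns phosphatidate into diacylglycerol for triglyceride and phospholipid synthesis, read 35.97, 32.26 and 34.37 CPM in the controls and 46.53, 39.69 and 42.66 in the Tpp1-/- libraries. It rose by a log2 value of 0.33 ± 0.08 (adjusted p = 0.047), a 1.26-fold level with no overlap.

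Of the regulators, Insig1 (chr5:28071363-28078662) read 36.82, 39.55 and 41.55 CPM in the controls and 46.58, 45.37 and 51.65 in the Tpp1-/- libraries. Its log2 difference was 0.28 ± 0.08 (adjusted p = 0.0896), a 1.21-fold level without overlap. Srebf1, which favours fatty acid genes, stood at 0.2 ± 0.1 (adjusted p = 0.292) and Srebf2, which favours sterol genes, at 0.1 ± 0.07 (adjusted p = 0.525), and both overlapped. The carrier Stard4, which moves cholesterol between membranes, stood at 0.16 ± 0.1 (adjusted p = 0.442).

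Among the 18 enzymes of cholesterol synthesis, 1 passed. Sc5d (chr9:42251595-42264256), which introduces a double bond into the sterol ring near the end of the route, read 88.83, 79.44 and 83.72 CPM in the controls and 98.74, 96.3 and 96.98 in the Tpp1-/- libraries. Its log2 difference was 0.21 ± 0.06 (adjusted p = 0.0819), a 1.16-fold level. The median log2 difference of the 18 enzymes was -0.005, beside 0.004 over all tested genes, with 8 estimates above 0 and 10 below. An unadjusted p under 0.05 was found for 4 of the 18, and for 10 of the 28 members, beside 16.9% of all genes. Hmgcs1 (0.02 ± 0.07) and the squalene epoxidase Sqle (0 ± 0.08), both strongly set by SREBP2 in other tissues, were close to 0, with adjusted p of 0.932 and 0.99.

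Another 12 enzymes of the route overlapped between the genotypes. In the mevalonate stretch the log2 differences were -0.06 ± 0.11 for Acat2, 0.13 ± 0.13 for the mevalonate kinase Mvk, -0.15 ± 0.09 for the phosphomevalonate kinase Pmvk, -0.03 ± 0.14 for the decarboxylase Mvd, -0.13 ± 0.32 for the isomerase Idi1 and 0.07 ± 0.19 for the farnesyl diphosphate synthase Fdps. Idi1 had by far the widest error, since it read between 0.6695 and 1.31 CPM. From the synthesis of squalene on the values were -0.01 ± 0.09 for Fdft1, -0.15 ± 0.12 for Tm7sf2, a sterol reductase, 0.05 ± 0.08 for Msmo1, -0.1 ± 0.11 for Nsdhl, 0.15 ± 0.1 for Hsd17b7, the reductase that works with Nsdhl, and -0.07 ± 0.08 for Dhcr7. None of these 12 had an adjusted p under 0.439.

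A count of genes whose libraries did not overlap was read against its background. Every Tpp1-/- library lay above every control for 7 members, which were the 5 above with Lss (0.18 ± 0.08, adjusted p = 0.246), the cyclase that makes lanosterol, and Cyp51 (0.13 ± 0.06, adjusted p = 0.282), the lanosterol demethylase. Over all tested genes this held for 9.46%. Ebp, the isomerase that follows lanosterol demethylation, was the 1 member that lay below in every library (-0.21 ± 0.08, adjusted p = 0.201), which held for 8.84% of all genes. Over the 28 members the median was 0.074, with 18 estimates above 0, 10 below and a range of -0.21 to 0.41.

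**Figure D2:**
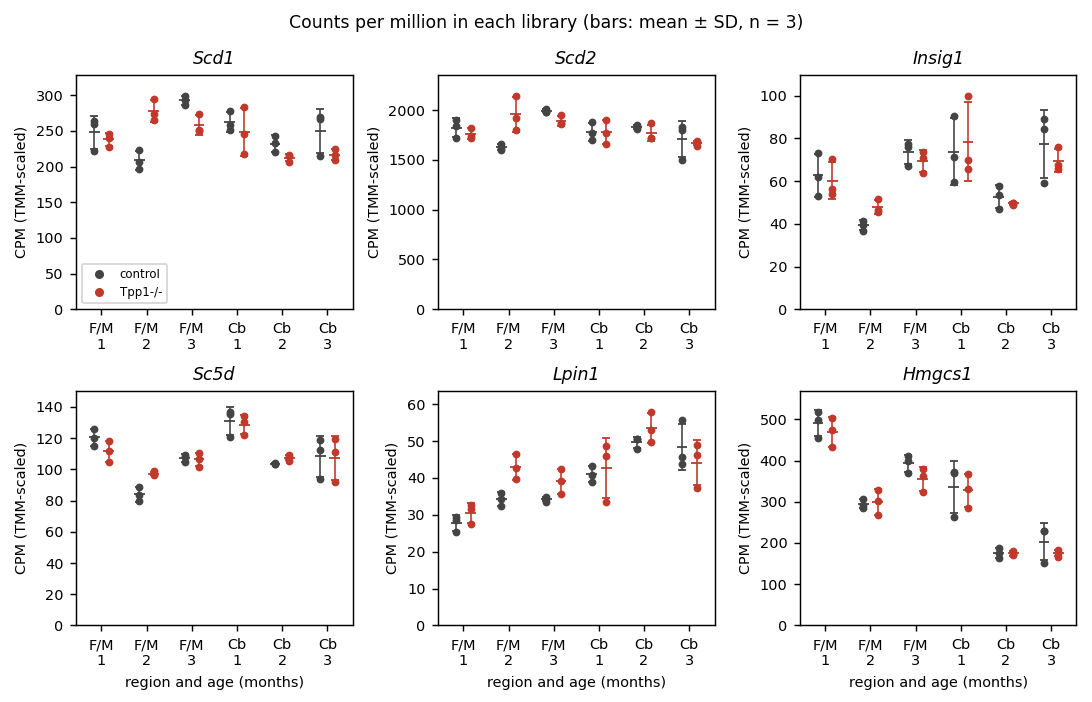
TMM-scaled CPM of Scd1, Scd2, Insig1, Sc5d, Lpin1 and Hmgcs1 in each of the 36 libraries by age, region and genotype, with 1 point per library and the mean ± SD of 3 beside them. At 2 months in F/M the Tpp1-/- points of the first 5 genes lie above all control points, while those of Hmgcs1 overlap.

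Several marker lists moved with genotype in the same 6 F/M libraries, and their part in the rise of the 5 members was not tested beyond the fits given here. Of 9 astrocyte markers 4 were higher (Aqp4, Gja1, Gfap and Slc1a2, named after their values were seen), and their summed level was 4750 to 5700 CPM in the controls and 6010 to 7430 CPM in the Tpp1-/- libraries. Of 12 choroid plexus markers 8 were higher, with sums of 251 to 644 and 554 to 754 CPM. Of 10 cerebellar markers 3 were higher (En2, Car8 and Zic1), with sums of 328 to 385 and 356 to 367 CPM, and of 6 markers of newly formed oligodendrocytes 1 was higher (Itpr2), with sums of 257 to 309 and 284 to 386 CPM. Of 10 midbrain and thalamus markers 1 was higher (Tcf7l2), with sums of 237 to 299 and 316 to 352 CPM, and of 10 forebrain markers 1 was lower (Neurod6), with sums of 681 to 686 and 603 to 634 CPM. The oligodendrocyte sums overlapped (7660 to 8160 and 6900 to 9760 CPM; 1 of 10 lower, Opalin), as did those of microglia (400 to 499 and 447 to 536 CPM; 0 of 10). None of these markers was at 0 counts in F/M at 2 months.

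When the midbrain and thalamus score of each library was added to the fit as a covariate, 0 of the 28 members and 10 genes in all passed. The log2 differences were then 0.4 for Scd1, 0.34 for Lpin1, 0.27 for Scd2 and 0.25 for Sc5d, close to those without the score, and 0.12 for Insig1, beside 0.28 without it. With the astrocyte score, an alternative chosen after seeing the data, 0 members and 6 genes in all passed. The log2 differences were then 0.25 for Scd1, 0.21 for Lpin1, 0.19 for Sc5d, 0.18 for Insig1 and 0.05 for Scd2, all lower than without the score, with adjusted p of 0.993 for each. The sums of both lists did not overlap between the genotypes. With the 6 F/M libraries fitted alone 1 member passed, which was Scd1, of 94 genes in all.

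**Figure D3:**
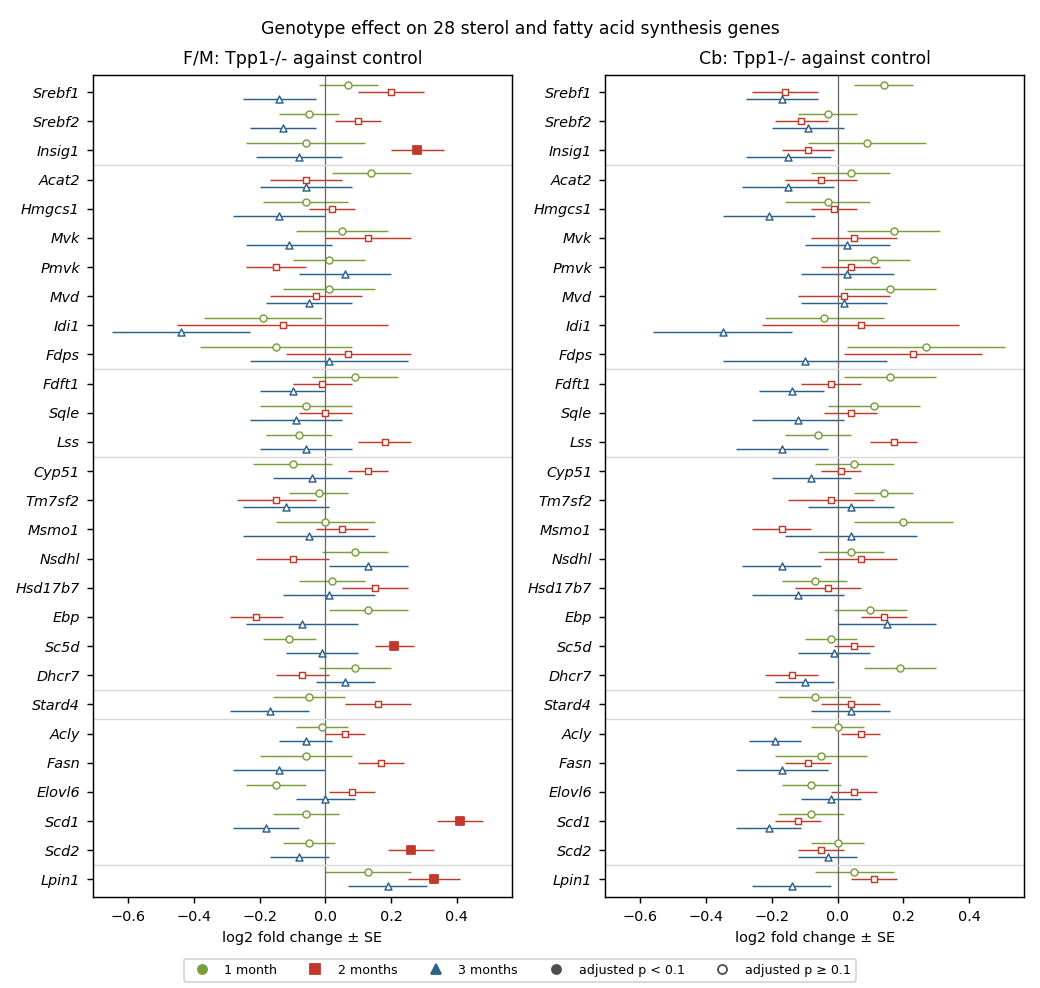
Log2 difference (Tpp1-/- minus control) of each of the 28 members at each age in F/M and Cb, with bars of ± SE, members ordered by role and points filled where the adjusted p was under 0.1. The filled points are Insig1, Sc5d, Scd1, Scd2 and Lpin1 in F/M at 2 months, and every Cb point is open.

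In Cb at 2 months 0 of the 28 members passed, beside 3.08% of all tested genes, and the lowest adjusted p of a member was 0.452. Their log2 differences ran from -0.17 to 0.23 with a median of 0.016, beside 0 over all genes. An unadjusted p under 0.05 was found for 9.67% of all genes and for 1 member, Lss (0.17 ± 0.07). Scd1 read 219.8, 243.1 and 232.7 CPM in the controls and 216.4, 215.0 and 206.5 CPM in the Tpp1-/- libraries, all of which lay below the controls, as they did for 10.5% of all genes (-0.12 ± 0.07, adjusted p = 0.592). Insig1 read 47.04, 57.65 and 53.48 CPM against 48.9, 49.82 and 49.92, and Sc5d 103.6, 103.7 and 103.8 against 109.0, 105.6 and 107.8.

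The difference of the genotype effect between the regions was then tested in the same fit, as the effect in Cb minus the effect in F/M. Of the 28 members 1 passed, beside 2.97% of all genes: Scd1, at -0.54 ± 0.09 (95% interval -0.73 to -0.34, adjusted p = 0.00249). The values were -0.31 ± 0.1 for Scd2 (adjusted p = 0.13), -0.37 ± 0.11 for Insig1 (0.108), -0.16 ± 0.08 for Sc5d (0.488) and -0.22 ± 0.11 for Lpin1 (0.449), so the effect differed between the regions past the threshold for Scd1 and not for these 4. With the replicate number taken as an animal sampled in both regions Insig1 passed as well, beside 2.89% of all genes. Ebp, which had opposite signs in the 2 regions, stood at 0.35 ± 0.11 (adjusted p = 0.133), and Fasn at -0.26 ± 0.09 (adjusted p = 0.235). In the 2-month Cb libraries the midbrain and thalamus markers also differed by genotype, with 4 of 10 lower and sums of 217 to 245 CPM in the controls and 130 to 161 CPM in the Tpp1-/- libraries, where 2 of the 10 had 0 counts in every library. Of 12 choroid plexus markers 7 were higher (sums of 1020 to 1310 and 1660 to 1840 CPM), of 10 forebrain markers 2 were lower (Drd2 and Lmo3; 26.5 to 30.3 and 18.5 to 19.5 CPM), and of 10 oligodendrocyte markers 2 were lower (Opalin and Mog; 6990 to 7260 and 5720 to 7200 CPM). Their part in the difference was not tested.

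At 1 month no member passed in either region, where 0.0112% of all genes did in F/M and 0.0112% in Cb, and no member had an unadjusted p under 0.05, beside 1.89% and 7.66% of all genes. The F/M log2 differences ran from -0.19 to 0.14 with a median of -0.032 (all genes -0.004), and the Cb ones from -0.08 to 0.27 with a median of 0.044 (all genes 0.006). Scd1 read 221.7, 263.2 and 259.9 CPM in the F/M controls and 227.1, 246.0 and 240.6 in the Tpp1-/- libraries, which overlapped. Its log2 difference of -0.06 ± 0.1 had the opposite sign to that of 2 months. Scd2 read 1724, 1905 and 1845 CPM against 1742, 1824 and 1720 (-0.05 ± 0.08), and Sc5d 115.2, 125.7 and 120.4 CPM against 118.3, 111.7 and 104.5 (-0.11 ± 0.08). Insig1 varied widely among the controls, from 52.94 to 73.34 CPM, and spanned 54.2 to 70.23 CPM in the Tpp1-/- libraries. Lpin1 had the sign of 2 months, at 0.13 ± 0.13, with 25.41, 28.69 and 29.3 CPM in the controls and 27.37, 32.71 and 31.45 in the Tpp1-/- libraries. The groups overlapped for all 4 genes. The effects of the 2 regions did not differ past the threshold for any member (0% of all genes passed).

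At 3 months, when motor signs are present, again 0 of the 28 members passed in F/M (0.488% of all genes) and 0 in Cb (0.952%), and in F/M 0 members had an unadjusted p under 0.05, beside 5.94% of all genes. In F/M 22 of the 28 estimates lay below 0, with a median of -0.067 beside -0.003 over all genes and a range of -0.44 to 0.19. Scd1 read 285.9, 292.8 and 299.0 CPM in the controls and 249.1, 273.8 and 250.8 CPM in the Tpp1-/- libraries. All 3 Tpp1-/- libraries lay below the controls, where at 2 months all 3 had lain above (-0.18 ± 0.1, adjusted p = 0.91). Scd2 (-0.08 ± 0.09) and Fasn (-0.14 ± 0.14) had the same order, and Lpin1 (0.19 ± 0.12) and Nsdhl (0.13 ± 0.12), a sterol dehydrogenase, had the opposite one, with every Tpp1-/- library above the controls. Over all genes 12.3% lay wholly below and 11.8% wholly above, near the share of members. Lpin1 read 34.4, 33.57 and 34.69 CPM in the controls and 39.04, 35.75 and 42.44 in the Tpp1-/- libraries, and so was the member among the 5 of 2 months with the same sign in F/M at all 3 ages. Insig1 (-0.08 ± 0.13) and Sc5d (-0.01 ± 0.11) overlapped, with 67.21 to 77.47 against 63.72 to 73.76 CPM and 104.4 to 109.1 against 101.8 to 110.5 CPM.

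In Cb at 3 months 21 of the 28 estimates lay below 0, with a median of -0.11 beside -0.003 over all genes. An unadjusted p under 0.05 was found for 6.49% of all genes and for 2 members, Acly (-0.19 ± 0.08, adjusted p = 0.688) and Scd1 (-0.21 ± 0.1, adjusted p = 0.757). Acly read 201.2, 195.7 and 219.1 CPM in the controls and 180.6, 176.8 and 181.0 in the Tpp1-/- libraries, and was the 1 member wholly below the controls, beside 4.2% of all genes. Hmgcs1 read 228.3, 228.7 and 150.8 CPM in the controls and 167.1, 182.7 and 176.8 in the Tpp1-/- libraries, so control replicate 3, a female, was below all 3 of them. Without that library Hmgcs1 stood at -0.38 (adjusted p = 0.0643) and Scd1 at -0.31 (adjusted p = 0.0745), and these 2 members then passed, beside 1.53% of all genes. The region difference of the effect passed for 0 members at 3 months, where 0.00581% of all genes did.

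Other cell markers moved at 3 months beside these values. In Cb 8 of 10 microglia markers were higher, with sums of 156 to 190 CPM in the controls and 314 to 488 CPM in the Tpp1-/- libraries, and 1 of 9 astrocyte markers, Gfap, was higher in both regions. The astrocyte sums lay wholly higher in the Tpp1-/- libraries, at 7120 to 7730 CPM beside 6920 to 7060 in the F/M controls and at 6310 to 6540 CPM beside 5780 to 5920 in the Cb controls. The sums of 8 endothelium markers lay wholly lower, at 255 to 278 CPM beside 281 to 294 in F/M and at 247 to 280 CPM beside 284 to 296 in Cb, where 0 of 8 passed in either region. In F/M the sums of 6 markers of newly formed oligodendrocytes (267 to 269 CPM in the controls and 235 to 263 CPM in the Tpp1-/- libraries) and of 10 cerebellar markers (364 to 395 and 315 to 347 CPM) also lay wholly lower, with 0 past the threshold in either list. With the astrocyte score in the fit 3 members passed in F/M, beside 13.2% of all genes, and 4 in Cb, beside 6.66%. In F/M 1 of 10 microglia markers was higher (Tyrobp), with sums of 438 to 470 and 558 to 618 CPM. The F/M midbrain and thalamus list, higher in the Tpp1-/- libraries at 2 months, was lower in them at 3 months, with sums of 316 to 328 CPM in the controls and 237 to 273 CPM in the Tpp1-/- libraries and 1 of 10 markers lower (Prkcd). The oligodendrocyte sums were 6740 to 7000 CPM in the F/M controls and 5670 to 6310 CPM in the Tpp1-/- libraries, and 5250 to 6630 and 4630 to 6520 CPM in Cb, with 0 of 10 markers past the threshold in either region. The part of these cells in the members' values was not tested further.

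The change of the genotype effect with age was tested in a fit of all 36 libraries with 18322 genes. Between 2 and 3 months in F/M 1 member passed, beside 0.393% of all genes: the effect on Scd1 was lower at 3 months, with a log2 difference of -0.59 ± 0.12 (3 minus 2 months, 95% interval -0.84 to -0.34, adjusted p = 0.0276). It did not pass without control replicate 2 or Tpp1-/- replicate 1 of 2 months or without Tpp1-/- replicate 3 of 3 months, with adjusted p of 0.108, 0.136 and 0.119. For the others that rose at 2 months the difference was -0.33 for Scd2 (adjusted p = 0.256), -0.36 for Insig1 (0.734), -0.22 for Sc5d (0.683) and -0.13 for Lpin1, and none of these passed. From 1 to 2 months the effect on Scd1 differed by 0.47 ± 0.12 with an unadjusted p of 0.000544, which did not pass after adjustment (0.31). By edgeR no member passed in F/M from 1 to 2 months (0.0218% of all genes; 3 members at an unadjusted p under 0.05, and 1 passed with DESeq2) or from 1 to 3 months (0.153%; 0 members at an unadjusted p under 0.05). In Cb 0 members passed in each comparison, beside 1.28% of genes from 1 to 2 months, 1.44% from 2 to 3 and 0.458% from 1 to 3, with 2 members each at an unadjusted p under 0.05.

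The other genes of the pathway were examined in 5 lists of 51 genes in all. At 2 months in F/M 4 of 15 other SREBP targets rose and 0 fell, beside 2.26% of all genes that rose. Fads2, a desaturase of polyunsaturated fatty acids, read 72.74, 74.61 and 71.2 CPM in the controls and 103.4, 95.61 and 96.79 in the Tpp1-/- libraries (0.44 ± 0.07, adjusted p = 0.0108). Gpam, which starts glycerolipid synthesis in mitochondria, read 42.18, 34.72 and 39.45 against 53.56, 53.58 and 49.54 CPM (0.43 ± 0.08, adjusted p = 0.0157). The others, named after their values were seen, were the elongase Elovl5 (0.36 ± 0.07, adjusted p = 0.028) and a further desaturase, Fads1 (0.25 ± 0.07, adjusted p = 0.0831). The list's median was 0.163, beside 0.004 over all tested genes. With the midbrain and thalamus score or the astrocyte score in the fit 0 of the 15 passed, and with the 6 libraries alone (Fads2 and Gpam) or in the 36-library fit (Fads2 and Elovl5) 2 did. Without 1 library the count ran from 1 to 5: Fads2 alone passed without Tpp1-/- replicate 1, Fads2 and Gpam without control replicate 3 or Tpp1-/- replicate 3, and 5 genes without control replicate 1 or Tpp1-/- replicate 2, where 12.6% and 5.81% of all genes passed.

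The next list mixed targets of the liver X receptors (LXRs) with the genes of the receptors themselves and other genes of sterol export and handling. The LXRs respond to oxysterols and also act on Scd1 and Srebf1 in other tissues. Of the 14 genes in this list 13 were tested and 3 rose, beside the same 2.26%. Abca1, the exporter of cholesterol to apolipoproteins, read 49.89, 39.07 and 45.16 CPM in the controls and 76.87, 58.69 and 60.54 in the Tpp1-/- libraries (0.55 ± 0.11, adjusted p = 0.0185). Apoe, the main apolipoprotein of brain, stood at 0.36 ± 0.09 (adjusted p = 0.0617) and Npc1, which releases cholesterol from lysosomes, at 0.26 ± 0.08 (adjusted p = 0.0954), both named after their values were seen. The list's median was 0.05. Here too 0 genes passed with either score, and 0 in the 36-library fit, while Abca1 alone passed with the 6 libraries alone. The count was 0 without Tpp1-/- replicate 1, 1 (Abca1) without control replicate 3 or Tpp1-/- replicate 3, 2 without control replicate 2, and 4 without control replicate 1, of which 1 was lower.

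The other 3 lists held no gene that passed in the same fit. Of 8 other sterol synthesis enzymes, 7 genes of SREBP processing and 7 of myelin lipid synthesis, 0 passed at 2 months in F/M, with medians of 0.001, -0.054 and 0. With the correction for exon length Mbtps2, a protease that cuts the SREBPs, passed as lower (named after its value was seen), and without 1 library the first and the last list held 0 or 1 gene that passed.

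In the other genotype comparisons within an age and region 0 genes of these 5 lists passed. The region difference of the effect at 2 months passed for Elovl5 (-0.36 ± 0.1, adjusted p = 0.0859) and for Mid1ip1, a protein that binds acetyl-CoA carboxylase (-0.42 ± 0.11, adjusted p = 0.0511; named after its value was seen), and not for Gpam (-0.37 ± 0.11, adjusted p = 0.109) or Fads2 (-0.3 ± 0.11, adjusted p = 0.196). With each of the 12 libraries left out in turn Elovl5 passed 4 times and Mid1ip1 6 times. The effect on Fads2 in F/M was lower at 3 than at 2 months, with a log2 difference of -0.53 ± 0.12 (adjusted p = 0.0387), and passed in 5 of 12 fits that left out 1 library.

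Of the members that differed between the regions in control mice, most were lower in Cb. The share that differed in either direction was near that of all genes at 1 and 3 months and above it at 2 months. At 1 month 4 members were higher and 11 lower in Cb than in F/M, beside 29.7% of all genes higher and 29.7% lower. At 2 months 8 were higher and 15 lower (34.7% and 35.4% of all genes), and at 3 months 4 were higher and 13 lower (29.6% and 28.2%). The medians of the members were -0.094, -0.243 and -0.224 at 1, 2 and 3 months, beside 0.02, -0.006 and 0.042 over all genes. Of the 18 cholesterol enzymes 9, 12 and 9 were lower in Cb and 1, 2 and 1 higher.

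Lower in Cb at all 3 ages were 9 members (32.1%, beside 23.3% of the 16713 genes tested at every age). They were Srebf2, Acat2, Hmgcs1, Fdft1, Sqle, Msmo1, Nsdhl, Dhcr7 and Fasn. Fdft1, the squalene synthase and first enzyme committed to sterols, had log2 differences (Cb minus F/M) of -0.87, -1.14 and -0.9 at 1, 2 and 3 months, and at 2 months it read 47.78, 59.69 and 54.86 CPM in F/M against 23.0, 25.55 and 25.11 in Cb. An overlap with a gene on the other strand covers 18.31% of its exons. Sqle had -0.56, -0.86 and -0.91, and at 2 months read 65.13, 75.53 and 71.67 CPM in F/M and 39.05, 38.02 and 39.94 in Cb, without overlap.

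Hmgcs1 differed by -0.55, -0.75 and -0.96 at 1, 2 and 3 months, and Srebf2 by -0.73, -0.79 and -0.87. At 2 months Hmgcs1 read 285.2, 307.5 and 293.0 CPM in F/M and 164.0, 186.9 and 175.7 in Cb, while Srebf2 read 185.8, 174.9 and 188.7 against 106.5, 107.6 and 103.1. The libraries of the regions were thus well apart for the factor and for this enzyme. Msmo1, the sterol methyl oxidase, differed by -0.83, -0.87 and -0.88, Nsdhl by -0.58, -0.77 and -0.52, Acat2, which joins acetyl-CoA units, by -0.35, -0.62 and -0.37, and Dhcr7, the last reductase of the route, by -0.23, -0.45 and -0.3. Fasn differed by -0.39, -0.48 and -0.76.

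Higher in Cb at all 3 ages were Ebp, Stard4, Elovl6 and Lpin1, 4 members or 14.3%, beside 21.7% of all genes. Ebp stood at 1.01, 0.72 and 1.09, and at 2 months read 17.3, 17.67 and 16.5 CPM in F/M and 26.86, 29.75 and 28.31 in Cb, unlike most enzymes of the route. Stard4 stood at 0.63, 1 and 0.52, Lpin1 at 0.56, 0.54 and 0.5, and Elovl6 at 0.23, 0.55 and 0.29. Scd1 and Scd2 passed in both directions, at 0.15 and 0.17 at 2 months and -0.23 and -0.22 at 3 months, and the difference between these ages was not tested. Mvd, Idi1, Lss and Acly passed at no age.

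The other 9 members passed at 1 age or at 2. At 2 months alone Insig1 (0.43 ± 0.08, adjusted p = 9.62e-05) and Sc5d (0.3 ± 0.06, adjusted p = 0.000162) were higher in Cb, and Srebf1 (-0.2 ± 0.1), Mvk (-0.31 ± 0.13), Pmvk (-0.39 ± 0.09) and Tm7sf2 (-0.43 ± 0.12) were lower. Sc5d read 88.83, 79.44 and 83.72 CPM in F/M and 103.6, 103.7 and 103.8 in Cb, so its control libraries were apart. Cyp51 was lower at 2 and 3 months (-0.28 ± 0.06 and -0.41 ± 0.12), Fdps at 1 and 2 (-0.66 ± 0.24 and -0.66 ± 0.2) and Hsd17b7 at 1 and 3 (-0.32 ± 0.1 and -0.42 ± 0.14). Whether these differences varied with age was not tested.

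The makeup of the regions also differed, and its part in these values was not tested. In Cb all 10 microglia markers were lower at each age and 4, 7 and 3 of 10 oligodendrocyte markers were lower at 1, 2 and 3 months, while 5, 6 and 4 of 9 astrocyte markers were higher and 1 was lower at each age. The fit took the libraries as independent, and the labels do not state whether equal numbers in both regions mean the same mouse. With the number as a block 16, 23 and 15 members passed at 1, 2 and 3 months, beside 15, 23 and 17 without it, while 61.4%, 70.3% and 55.3% of all genes passed. Insig1 then passed at 1 month, and Scd1 and Scd2 did not at 3 months.

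Between ages the levels rest on different annotation, counting settings and sequencing sets, which cannot be told apart from age. In controls Srebf1 was higher at 3 than at 1 month in both regions, with a log2 difference of 0.64 for F/M (adjusted p = 6.58e-05) and of 0.53 for Cb (adjusted p = 0.000707). In F/M it read 29.4, 29.17 and 29.77 CPM at 1 month and 48.42, 47.69 and 42.72 at 3 months, well apart. In F/M 1 member was higher (3.79% of all genes) and 2 lower (7.86%), which were Elovl6 (-0.3, adjusted p = 0.0152) and Dhcr7 (-0.3, adjusted p = 0.031).

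In Cb 1 member was higher (7.83% of all genes) and 8 were lower (7.33%). These were Hmgcs1 (-0.72, adjusted p = 0.000203), Sqle (-0.57), Cyp51 (-0.5), Mvd (-0.43), Dhcr7 (-0.36), Lss (-0.3), Sc5d (-0.27) and Elovl6 (-0.23). Cholesterol enzymes are 7 of these 8 and 18 of the 28 members. With each library left out in turn the 9 members became 5 without control replicate 1 of 1 month (11.5% of all genes), 6 without control replicate 1 of 3 months (10.2%) and 7 without each of the others. Hmgcs1 read 370.7, 372.6 and 262.6 CPM at 1 month and 228.3, 228.7 and 150.8 at 3 months, without overlap, and in each set replicate 3 was the lowest. Oligodendrocyte markers moved the same way, with 9 of 10 lower at 3 months in each region and list medians of -0.748 in F/M and -0.813 in Cb, and their part was not tested.

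In some libraries most of the 18 cholesterol enzymes were the lowest or the highest of their group, while in others they were not, as in F/M control replicate 3 of 2 months, where 2 were lowest, 2 highest and the median deviation was 0. In the heterozygous Cb control of 1 month 17 of the 18 were the lowest of the 3 control libraries, with a median deviation of -0.17 log2 from the group mean, where 35.2% of all genes were lowest in that library. In the F/M library with the same number 15 of 18 were lowest (median -0.08, 32% of all genes). Tpp1-/- replicate 3 of 1 month, which was not heterozygous, had 13 of 18 lowest in F/M (median -0.06, 35.1% of all genes) and 9 of 18 in Cb (median -0.1, 29.3%). The other controls of 1 month were wild type, 1 female and 1 male, and with 1 heterozygous control in each region this genotype cannot be told apart from the animal and its library. In Cb at 3 months the female control replicate 3 held the lowest value of 13 of the 18 (median -0.19, 41.3% of all genes), with Msmo1 at 35.16 CPM beside 70.63 and 71.23 in the other controls. The oligodendrocyte sum was the lowest of the controls in both Cb libraries, at 9734 CPM beside 10660 and 12640 at 1 month and 5248 CPM beside 6623 and 6630 at 3 months. The choroid plexus sum stood further apart and in opposite directions, at 277.2 CPM beside 973.5 and 609.2 at 1 month and at 1561 CPM beside 987.1 and 1032 at 3 months. The part of either was not tested.

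Similar spread touched the comparison in which members passed. In F/M at 2 months 13 of 18 enzymes were lowest in control replicate 1 (median -0.16), as were 40.7% of all genes, and 13 were highest in control replicate 2 (0.13), and in these libraries the median deviation of long genes minus that of short genes was 0.19 and -0.19. In Cb at 3 months Tpp1-/- replicate 1 held the highest value of 12 enzymes (median 0.15) with a long-minus-short value of -0.45, while Lss, whose exons are long, read 27.36 CPM there and 42.75 and 43.47 in the other Tpp1-/- libraries. A correction of the fit for exon length, chosen after seeing the data, left the same 5 members past the threshold in F/M at 2 months, of 909 genes in all.

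**Figure D4:**
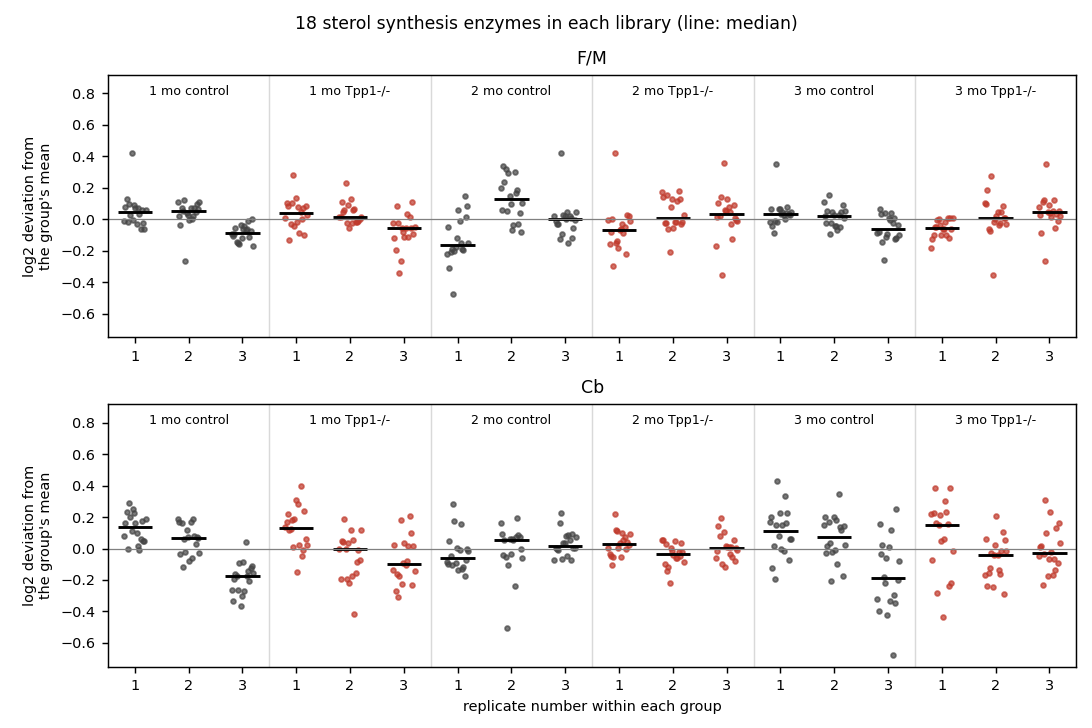
Log2 deviation of each of the 18 cholesterol synthesis enzymes from its group mean in each of the 36 libraries, by region, age and genotype, with 1 point per gene and a line at the median of the library. The lowest medians are Cb control replicate 3 at 3 months (-0.19), Cb control replicate 3 at 1 month (-0.17) and F/M control replicate 1 at 2 months (-0.16), and the highest is Cb Tpp1-/- replicate 1 at 3 months (0.15).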

How the data were processed

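RNA of 36 libraries was measured, 12 at each age. The authors deposited raw counts of reads per gene, whole numbers with no normalization, made with featureCounts after alignment with STAR 2.5.2b (submitters' processing notes). On GRCm38, and per the file headers, counting used GENCODE M21 at 1 month (featureCounts 1.6.3, strand setting 1), M16 at 2 months (1.6.2, setting 2) and M18 at 3 months (1.6.2, setting 1). The headers name fractional counting of multiple matches, yet every value is whole. Protein-coding genes held 95.9% to 97.8% of a library, and no pair of replicates agreed within sampling noise (lowest chi-square per degree of freedom 1.43). A gene with few reads has a wide counting error, which bears on Idi1 and Fdps.

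Genes were filtered with filterByExpr (minimum count 10) on the 4 groups of an age and tested with the quasi-likelihood F test of edgeR 4.0.16 in R 4.3.3 (TMM scaling, two-sided, Benjamini-Hochberg adjustment over all genes tested). Each age was fitted alone, and effects were compared between ages in a fit of 12 groups on the genes of all 3 annotations. CPM and FPKM are TMM-scaled. SE is the log2 difference divided by the square root of F, and intervals use 95% confidence. A gene passed at an adjusted p under 0.1. The fit was tested on simulated data, in which recovery was required only for changes far larger than those of the members that passed.

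Groups came from the labels. The genes named are all members, Tpp1, and the 3 genes of the other lists with the smallest p among those that passed in each genotype comparison. Certain other genes that the rule names are not reported here. Other genes named were chosen after their values were seen, as the text says. The members and lists were chosen with earlier results of these data known. Replicate numbers were not taken to pair control and Tpp1-/- mice, since their deviations correlated by -0.085 to 0.229, and in no age and region by over 0.1 in every pair. In F/M at 1 month they correlated by 0.0659 to 0.215, each best with its own number (3 of 3), and at 1 and 3 months equal numbers also had equal sex. Those of same-numbered F/M and Cb libraries correlated by 0.124 to 0.198 in controls and 0.0939 to 0.16 in Tpp1-/- mice at 1 month, by -0.0302 to 0.0133 and 0.058 to 0.0989 at 2 months, and by -0.0395 to -0.032 and -0.0178 to 0.0758 at 3 months. The Tpp1-/- libraries of 1 and 2 months and the controls of 1 month each correlated best with their own number (3 of 3), so whether a number marks a mouse remained unsettled. Alternatives were DESeq2 1.42.0, limma-voom (limma 3.58.1), RLE size factors, library totals, no filter, other thresholds, 6 libraries alone, replicate blocks, marker score covariates, the 36-library fit, each library left out and, chosen after seeing the data, a length correction and the astrocyte score.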

Additional observations from a re-analysis of the deposited data

Results flagged for a closer look

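The genotype effect on Scd1 at 2 months differed between the regions by -0.54 ± 0.09 (Cb minus F/M, adjusted p = 0.00249), with every Tpp1-/- library above the controls in F/M and below them in Cb. In F/M the effect on Scd1 was lower at 3 than at 2 months, with a difference of -0.59 ± 0.12 (adjusted p = 0.0276), with every Tpp1-/- library above the controls at 2 months and below them at 3 months. With each library left out in turn the former passed in 12 of 12 fits and the latter in 9 of 12, and not without F/M control replicate 2 or Tpp1-/- replicate 1 of 2 months or Tpp1-/- replicate 3 of 3 months (adjusted p of 0.108, 0.136 and 0.119).

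The effect on Elovl5 differed between the regions at 2 months by -0.36 ± 0.1 (adjusted p = 0.0859), and that on Mid1ip1 by -0.42 ± 0.11 (adjusted p = 0.0511). The effect on Fads2 in F/M was lower at 3 than at 2 months, with a difference of -0.53 ± 0.12 (adjusted p = 0.0387). Of 12 fits that each left out 1 library, Elovl5 passed in 4 (without F/M control replicate 1 or 2, F/M Tpp1-/- replicate 2 or Cb Tpp1-/- replicate 1; adjusted p of up to 0.263 in the others). Mid1ip1 passed in 6, and not without F/M control replicate 3, F/M Tpp1-/- replicate 3, any Cb control or Cb Tpp1-/- replicate 1 (up to 0.202). Fads2 passed in 5, which left out control replicate 2 or Tpp1-/- replicate 2 or 3 of 2 months, or control replicate 3 or Tpp1-/- replicate 2 of 3 months (up to 0.19 in the others).

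The effect on Tpp1 itself differed from 2 to 3 months, with 0.79 ± 0.18 for F/M (adjusted p = 0.0648) and with 0.75 ± 0.18 for Cb (adjusted p = 0.0223), and from 1 to 3 months by 0.73 ± 0.18 in Cb (adjusted p = 0.0721). In F/M the difference from 1 to 3 months, 0.58 ± 0.18, did not pass (adjusted p = 0.564). With 1 library left out the 2-to-3-month difference passed in 12 of 12 fits for Cb but for F/M in 1 (without Tpp1-/- replicate 2 of 2 months; up to 0.19 in the others), and the 1-to-3-month one for Cb in 5 of 12 (up to 0.256). Age cannot be told apart from the annotation, counting settings and sequencing set of each age.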

How the results depend on the processing

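For single genes 3165 settings were tried. They covered the genotype effects of the members and Tpp1 within an age and region. They also covered the region difference of Scd1 at 2 months and its F/M difference of 3 against 2 months. Of these settings 3112 stayed on the same side of the threshold, including changes of sign where neither fit passed. Most of these effects did not pass in the main fit. The call was lost in 39, gained in 13 and reversed in 1, and 310 of 340 counts of members stayed within 1.5 times. The 5 members in F/M at 2 months became 2 at an adjusted p under 0.05 (1.14% of all genes), 0 at a fold of at least 1.5 (0.737%), 1 with the 6 libraries alone, 0 with the midbrain and thalamus score, 0 with the astrocyte score and 1 in the 36-library fit, where the last 4 settings passed 0.574%, 0.058%, 0.0348% and 0.267% of all genes. The 1 member of the 2-month region difference became 3 with DESeq2, 2 with limma-voom, 2 with no filter and 2 with the animal as replicate block (3.38%, 2.85%, 2.44% and 2.89% of all genes). The 0 members of 3 months became 3 in F/M with 6 libraries alone (Fasn, Scd1 and Lpin1), or 10.7% beside 11.1% of all genes, 3 with the astrocyte score, or 10.7% beside 13.2%, and 4 in Cb with that score, or 14.3% beside 6.66%, where Lpin1 reversed from -0.14 to 0.72 (adjusted p = 0.0748). With DESeq2 the F/M counts were 1 for the effect of 2 against 1 month, 2 for 3 against 2 months and 5 for controls of 3 against 1 month (0.746%, 0.738% and 12% of all genes). The causes were not tested.

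With each library left out in turn, the count in F/M at 2 months ran from 1 to 6: it was 6 without control replicate 1 (12.6% of all genes passed then), 2 without control replicate 2 (2.35%), 5 without Tpp1-/- replicate 2 (5.81%) and 1 without control replicate 3, Tpp1-/- replicate 1 or Tpp1-/- replicate 3 (0.439%, 0.224% and 0.342%), and Scd1 passed each time. The genes of the 5 pathway lists that passed, 7 with all libraries, then ran from 1 to 11. The 2-month region difference ran from 1 to 3 (more than 1 without F/M control replicate 1 or 2, F/M Tpp1-/- replicate 2 or Cb control replicate 1), Cb at 3 months from 0 to 2 (2 without control replicate 3, 1.53% of all genes), and the F/M effect of 3 against 2 months from 0 to 1. The last was 0 without control replicate 2 or Tpp1-/- replicate 1 of 2 months or Tpp1-/- replicate 3 of 3 months, where Scd1 had adjusted p of 0.108, 0.136 and 0.119. The Cb effect of 3 against 1 month ran from 0 to 1 (1 without Tpp1-/- replicate 1 of 3 months, 8.52% of all genes), Cb controls of 3 against 1 month from 5 to 7 beside 9 (5 without control replicate 1 of 1 month), the F/M ones from 2 to 3, and the region counts from 12 to 15, 20 to 23 and 15 to 18. The other counts stayed at 0.

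With the replicate number as a block 5 members passed in F/M at 2 months, the same genes, of 607 genes in all. The deviations of same-numbered F/M libraries of 2 months correlated by -0.0406 to 0.0238, so the numbers were not taken as pairs. In the other genotype comparisons 0 members passed with this block. Over 17 settings Scd1 in F/M at 2 months passed in 15, Lpin1 in 10, Scd2 in 9, Sc5d in 8 and Insig1 in 7. The region difference of Scd1 passed in 18 of 18 settings, which were not the same ones. Scd1 in F/M did not pass with the midbrain and thalamus score or with the astrocyte score. Neither score was tried for the region difference, nor were the length correction and the fit of a single region, so the shares cannot be compared.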
